A study of Mus musculus with 2 samples.

Results

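The microRNA genes described here lie within the Hox gene clusters of the mouse. They were chosen by name, as Mir10a, Mir10b, Mir196a-1, Mir196a-2, Mir196b and Mir615, and all 6 have a row among the 1973 microRNA genes of the deposited tables. They were measured by microRNA sequencing, which reads RNA fragments under 30 bases, in kidney of B6NCrl mouse embryos at age 16.5 days, with no genotype or treatment named in the labels. The series holds 1 group of 2 libraries, given as biological replicates 1 and 2, each from kidneys of male and female embryos pooled together. Replicate 2 is labelled as kidney from 41 embryos. Both libraries list the same donor record, so the spread between them may be partly technical. No treated or mutant group exists here, so the questions addressed are how the Hox-locus microRNAs compare with each other by cluster and paralogue, and how far their levels differed between the libraries.

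Hox genes encode homeodomain transcription factors that give cells their position along the body axis, and mammals carry them in the clusters Hoxa, Hoxb, Hoxc and Hoxd. MicroRNAs are short RNAs, cut from a hairpin precursor, that lower the output of mRNAs matching their seed, the stretch near the 5′ end that leads target recognition. The miR-10 and miR-196 genes sit at matching places in more than 1 Hox cluster, since the clusters arose by duplication, and both families are known to repress Hox mRNAs. The kidney forms from intermediate mesoderm of the trunk, and Hox genes such as Hoxa11 and Hoxd11 are needed for it.

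The annotated mature sequences (RefSeq, GRCm38.p6, 5′ to 3′) are shown because they decide which members can be told apart by a short read. Capitals mark the seed, bases 2 to 8.
miR-10a-5p: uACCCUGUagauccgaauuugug
miR-10b-5p: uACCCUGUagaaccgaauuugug
miR-196a-5p of Mir196a-1 and Mir196a-2: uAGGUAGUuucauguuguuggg
miR-196b-5p: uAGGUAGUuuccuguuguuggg
miR-615-3p: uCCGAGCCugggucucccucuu
miR-615-5p: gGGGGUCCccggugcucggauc

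These fell into 3 seed groups when the 5p arms of miR-10 and miR-196 and the 3p arm of miR-615 were compared. The seed ACCCUGU was shared by Mir10a and Mir10b and by no other annotated gene. The seed AGGUAGU was likewise carried by Mir196a-1, Mir196a-2 and Mir196b alone, and the seed CCGAGCC by Mir615 alone. Counted from 1 at the 5′ end, miR-10a-5p and miR-10b-5p differed by 1 base of 23, U12A, and miR-196a-5p and miR-196b-5p by 1 base of 22, A12C. Both differences lie outside the seed. The opposite arms differed more, with 3 substitutions over 22 bases (A3G, U9A and A10U) between miR-10a-3p and miR-10b-3p. The tables count reads per gene and not per arm, so the values below do not say which arm was read.

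The genes Mir196a-1 and Mir196a-2 were the exception to this separation. Their hairpins (RefSeq, GRCm38.p6) are printed with the longest shared stretch in capitals.
Mir196a-1: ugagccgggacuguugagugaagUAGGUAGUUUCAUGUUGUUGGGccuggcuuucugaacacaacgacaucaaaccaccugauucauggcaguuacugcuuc
Mir196a-2: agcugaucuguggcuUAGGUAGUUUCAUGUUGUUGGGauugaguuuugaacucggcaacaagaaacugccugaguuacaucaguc

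The stretch they share is 22 bases long and is exactly the mature miR-196a-5p. A read of that RNA without flanking bases matches both genes, and the tables count reads with several mapping places in a row of their own, apart from the genes. Such reads made up 28.0% and 25.3% of all reads in replicates 1 and 2, over all genes. The counts of Mir196a-1 and Mir196a-2 are therefore uncertain, and their sum can be too low. The other members have no such exact copy among annotated microRNA precursors. The longest stretch shared with any of these was 15 bases for Mir10a and Mir10b (with each other), 14 for Mir615 and 12 for Mir196b. Near matches and the rest of the genome were not searched, and how many mismatches the mapping allowed is not known.

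All 6 genes lie on the transcribed strand of their Hox cluster. On GRCm38, the assembly also called mm10, Mir10a lies on chromosome 11 from 96317165 to 96317274, 1495 bases upstream of the Hoxb4 coding part and in no other annotated gene. Mir10b lies on chromosome 2 from 74726070 to 74726137, in introns of Hoxd3 and Hoxd4 and 1141 bases upstream of the Hoxd4 coding part. Mir196b, on chromosome 6 from 52230081 to 52230165 on the minus strand, lies between the coding parts of Hoxa10 and Hoxa9 and overlaps an annotated exon of Hoxa9. Mir196a-1, on chromosome 11 from 96265164 to 96265265, lies 6276 bases upstream of the Hoxb9 coding part, outside any other annotated gene. Mir196a-2, on chromosome 15 from 102973350 to 102973434, lies between the coding parts of Hoxc10 and Hoxc9, in an intron of a long Hoxc5 transcript. Mir615, on the same chromosome from 103014910 to 103015001, lies in the intron between the Hoxc5 coding exons. A further microRNA gene of the annotation, Gm44463 in Hoxd, has no row and was not analysed here.

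**Figure D1:**
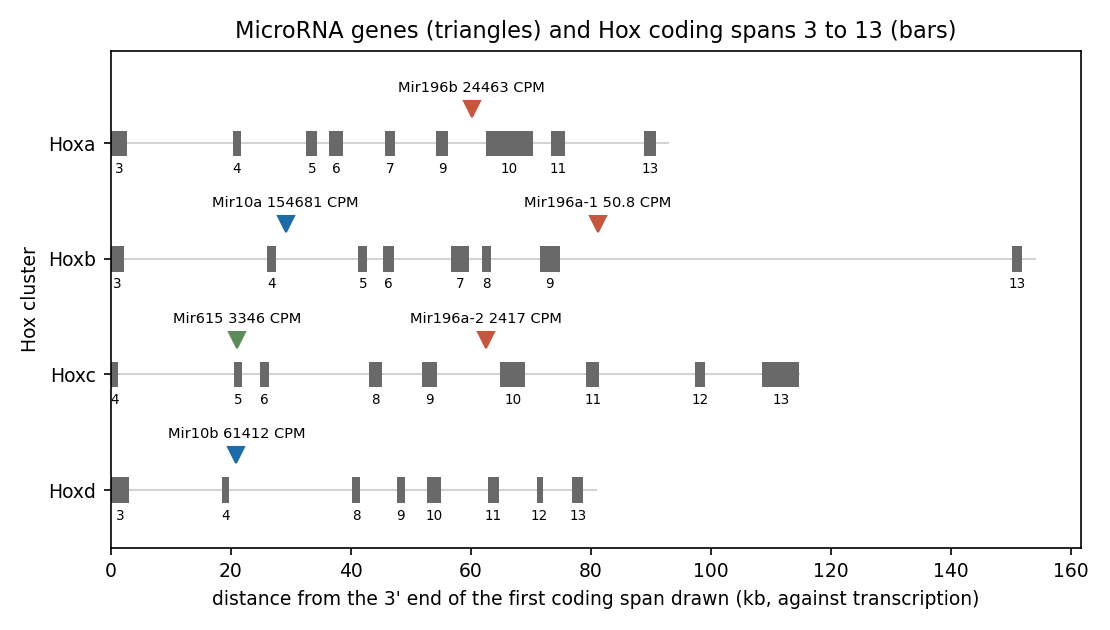
Position of the 6 microRNA genes (triangles, coloured by family, with mean CPM of both libraries) and of Hox coding spans (bars, numbered by paralogue, groups 3 to 13) in each cluster, as distance in kb from the 3′ end of the first coding span drawn. The miR-10 genes stand beside Hox4 paralogues and the miR-196 genes between paralogues 9 and 10, or above 9 in Hoxb, which has no paralogue 10.

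Levels are counts per 1000000 reads on the gene's strand in gene rows (CPM), of which there were 5317669 in replicate 1 and 7128703 in replicate 2. The members together held 26.0% (exact Clopper-Pearson 95% interval 25.9 to 26.0) of these reads in replicate 1 and 23.3% (23.3 to 23.3) in replicate 2, a mean of 24.6% ± 1.89 (SD, n = 2). The difference between the libraries was larger than the counting error. Reads with several mapping places are not in this total, so the share holds for the counted reads only. Of the members' reads, 87.7% ± 0.0849 came from the miR-10 genes, 10.9% ± 0.0389 from the miR-196 genes and 1.36% ± 0.0460 from Mir615 (SD, n = 2). Since the miR-196a counts can be too low, the miR-196 share can be too low and the others too high. In bulk tissue, fewer cells of a type and less RNA per cell cannot be told apart.

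Mir10a, which gives miR-10a, had 873733 reads in replicate 1 and 1034044 in replicate 2, or 164308 and 145054 CPM. It ranked first of all genes in both libraries, by counts that leave out reads with several mapping places. Mir10b, its paralogue in Hoxd, had 338516 and 421770 reads, or 63659 and 59165 CPM, and ranked 3 in both. The Hoxb gene stood 2.58-fold above the Hoxd gene in replicate 1 and 2.45-fold in replicate 2, so the ratio of the miR-10 paralogues was nearly the same in both pools. In place of a test, which with 2 libraries cannot go below p = 0.5 (exact two-sided sign flip), differences were read against the pooled replicate SD of the 176 other genes at 100 CPM or more. That SD was 0.22 on the log2(CPM + 1) scale. The range that holds 95% of a normal spread of that size, 1.35-fold, was the smallest fold called larger than the spread. Mir449a, with 214 reads in replicate 1 and 1751 in replicate 2, is among the 176 genes and raises that SD. The log2 difference of 1.33 ± 0.05 (SD, n = 2) between Mir10a and Mir10b exceeded that threshold. The spread covers differences of the same gene between the libraries only. An error in a gene's level that repeats in both libraries would not show in it, here or in the folds below.

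Among the miR-196 genes, the Hoxa gene Mir196b led with 137405 reads in replicate 1 and 164583 in replicate 2, or 25839 and 23087 CPM, ranks 12 and 15. The Hoxc gene Mir196a-2 followed with 12920 and 17147 reads, or 2430 and 2405 CPM, the closest relative agreement between libraries of any member in CPM. The Hoxb gene Mir196a-1 was the lowest member by far, with 301 and 321 reads, or 56.6 CPM (exact 95% interval 50.4 to 63.4) and 45.0 CPM (40.2 to 50.2). It still lay above the level that a count of 0 allows, 3 reads, which equals 0.564 and 0.421 CPM. These intervals and limits cover counting error only, because PCR copies of 1 molecule were not marked and count as separate reads.

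Mir196b stood 9.90-fold above the sum of the miR-196a genes (log2 3.31 ± 0.10, SD, n = 2), and Mir196a-2 stood 47.9-fold above Mir196a-1 (log2 5.58 ± 0.22). Both exceeded 1.35-fold. How many miR-196a-5p reads were set apart as mapping to several places cannot be read from the tables. The first of these folds can therefore be too high, and the second need not be the ratio of the gene products.

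Mir615, which has no paralogue among the genes measured here, had 18332 reads in replicate 1 and 23126 in replicate 2, or 3447 and 3244 CPM. It stood next above Mir196a-2, its neighbour in Hoxc, by 1.38-fold (log2 0.47 ± 0.05, SD, n = 2), which is barely past the spread. In replicate 2 alone the fold was 1.35. The threshold applies to the mean of both libraries, and a fold from a single library varies more, so neither library alone places this fold beyond the spread. Since the Mir196a-2 count can be too low, the order of these neighbours is uncertain.

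**Figure D2:**
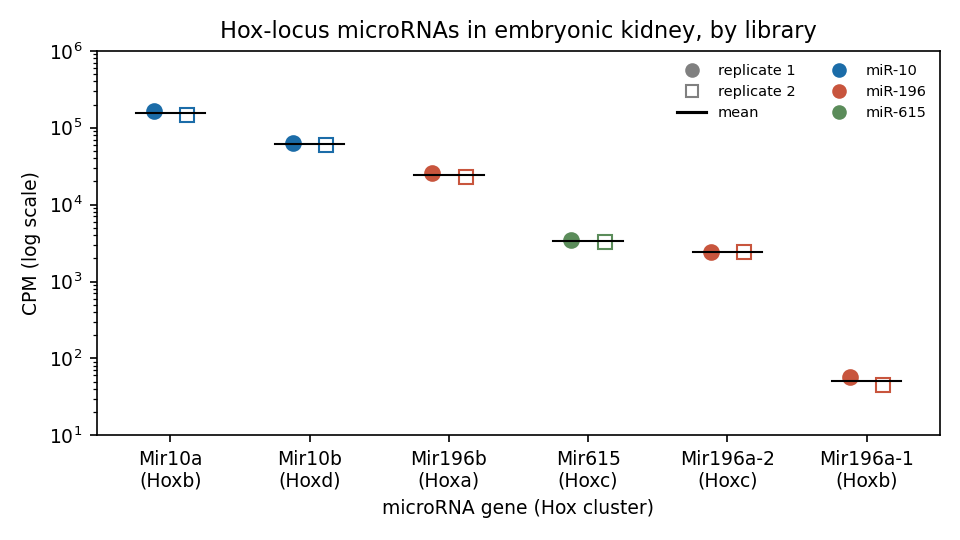
CPM of each member (log axis) in replicate 1 (filled circles) and replicate 2 (open squares), with the mean of both as a line. The order from Mir10a at 164308 and 145054 CPM to Mir196a-1 at 56.6 and 45.0 CPM was the same in both libraries.

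The order of levels was Mir10a, Mir10b, Mir196b, Mir615, Mir196a-2 and Mir196a-1 in both libraries. As the mean of both libraries, each of the 5 steps exceeded 1.35-fold. Mir10b stood 2.51-fold above Mir196b and Mir196b 7.30-fold above Mir615. The order by family was not an order by cluster. By these counts, Hoxb held the highest and the lowest member, Mir10a and Mir196a-1, which were 3058-fold apart (log2 11.58 ± 0.11, SD, n = 2). The Mir196a-1 count can be too low, so that fold can be too high. The Hoxc members lay within 1.42-fold of each other in each library. Precursor GC content was 69.6% for Mir615 and lay between 39.7% and 48.0% for the others.

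Summed by cluster, Hoxb held 16.4% of the reads in replicate 1 and 14.5% in replicate 2. Hoxd, with Mir10b as its only measured gene, held 6.37% and 5.92%. Hoxa, with Mir196b, held 2.58% and 2.31%, and Hoxc, with Mir615 and Mir196a-2, held 0.588% and 0.565%. Hoxb stood 2.52-fold above Hoxd, Hoxd 2.51-fold above Hoxa and Hoxa 4.24-fold above Hoxc, each beyond the spread. The Hoxc sum holds the uncertain Mir196a-2 count, and without Mir196a-1 and Mir196a-2 the last difference was 2.87 on the log2 scale in place of 2.08. Without Mir10a, the Hoxb sum would consist of the 50.8 ± 8.18 CPM (SD, n = 2) of Mir196a-1, below every other cluster. By these counts the rank of Hoxb rests on Mir10a, although the Mir196a-1 count can be too low.

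**Figure D3:**
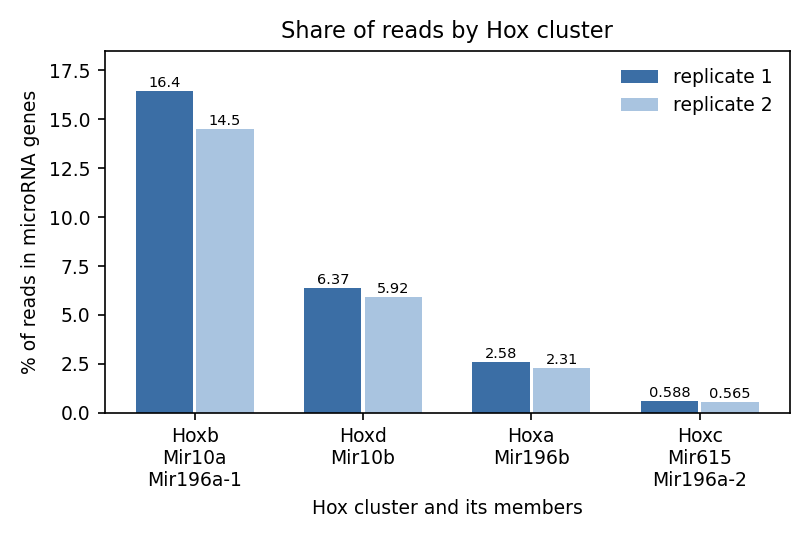
Percent of reads in microRNA genes held by the members of each Hox cluster, in replicate 1 (dark bars) and replicate 2 (light bars), without error bars. The order Hoxb, Hoxd, Hoxa and Hoxc held in both libraries, from 16.4% and 14.5% for Hoxb to 0.588% and 0.565% for Hoxc.

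Summed by seed, the miR-10 genes reached 216092 ± 16792 CPM, the miR-196 genes 26932 ± 1971 CPM and Mir615 3346 ± 144 CPM (SD, n = 2). The miR-10 sum stood 8.02-fold above the miR-196 sum, and that 8.04-fold above Mir615. The miR-196 sum holds the uncertain miR-196a counts, so the first fold can be too high and the second too low. The wider miR-10 family includes miR-99 and miR-100, which lie outside the Hox clusters and carry a shifted seed.
miR-99a-5p: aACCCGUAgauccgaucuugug
miR-99b-5p: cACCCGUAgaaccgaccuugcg
miR-100-5p: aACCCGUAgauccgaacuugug

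They are shown to set beside miR-10a-5p above: the seed ACCCGUA lacks the U of ACCCUGU. Mir99a reached 30069 CPM in replicate 1 against 29819 in replicate 2, Mir99b at 14134 and 13791 CPM, and Mir100 at 5793 and 5232 CPM. Each stood below Mir10b in both libraries. Their sum, 49419 ± 816 CPM (SD, n = 2), was 4.37-fold below the sum of the miR-10 genes (log2 2.13 ± 0.09), beyond the spread.

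Beside single genes of other loci, as counted here, Mir10a had no gene within reach. Reads with several mapping places are in no gene row, so genes with identical copies can be counted too low in this ranking. The next gene, Mir335 in the intron of imprinted Mest, reached 70219 CPM in replicate 1 against 61449 in replicate 2, 2.35-fold lower. Mir335 was also the gene nearest to Mir10b over both libraries, with a distance of 0.15 on the log2(CPM + 1) scale, and Mirlet7g, of the let-7 family, came next below Mir10b at 55692 ± 235 CPM. Neither differed from Mir10b beyond the spread. Mir196b lay between Mir130a (26604 ± 594 CPM), the nearest gene over both libraries, and Mir23b (23891 ± 3294 CPM). Mir615 lay between Mir18 of the Mir17 cluster (3381 ± 310 CPM), nearest over both, and Mir411 of the imprinted Dlk1-Dio3 locus (3220.1 ± 263 CPM). Mir196a-2 lay between Mir125a (2767 ± 314 CPM) and Mir872 (2398 ± 3.01 CPM), the latter at a distance of only 0.02. Mir196a-1 lay between Mir345 (52.1 ± 0.530 CPM) and Mir19a of the Mir17 cluster (50.7 ± 8.09 CPM), and H19-derived Mir675 was nearest over both. All these SDs are over 2 libraries, and apart from Mir10a no member differed from its neighbours beyond the spread.

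The labelled tissue was checked against microRNA markers. All 5 genes of the epithelial miR-200 family and all 6 of the miR-30 family, known from nephrons and podocytes, had reads, with sums of 26285 and 26770 CPM for the first list in replicates 1 and 2 and of 38266 and 45638 CPM for the second. Muscle markers summed to 302 and 325 CPM over 8 genes, with Mir1a-1, Mir133a-1 and Mir133a-2 at 0 reads. Neuronal markers summed to 121 and 94.1 CPM over 6 genes, with Mir124a-2 and Mir124a-3 at 0 reads. Many of these genes have near-identical copies, whose reads can map to several places. A count of 0 or a low sum therefore need not mean absence, and these sums cannot decide how much muscle or nerve tissue was present.

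The libraries were compared gene by gene, which compares these pools and not conditions. Replicate 2 was set against replicate 1 with TMM factors of edgeR and an exact two-sided conditional binomial test, adjusted by Benjamini-Hochberg over 455 genes with at least 10 summed reads. All 6 members were lower in replicate 2 and passed an adjusted p of 0.05 in that exact test, the highest being 0.000229. Of all tested genes 33.6% passed, and 17.8% passed as lower in replicate 2. The log2 ratios were -0.32 for Mir10a, -0.31 for Mir196b, -0.25 for Mir10b, -0.23 for Mir615 and -0.16 for Mir196a-2, with Mir196a-1 at -0.47 and a counting error of 0.12. The members' median was -0.28, against 0.01 over all tested genes.

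Depth weighs on that count, since the binomial test takes in read sampling only and abundant genes pass it easily. Of the 74 other genes whose mean reached 1000 CPM, 83.8% passed and 48.6% passed as lower, with a median log2 ratio of -0.04 and a range from -0.37 to 0.35. The 5 members of that abundance lay within this range, in its lower part. Of the 74 other genes, 5 lay below the median of all 6 members, -0.28. In the edgeR exact test with a biological coefficient of variation (BCV) fixed at 0.2, 0 of the 6 members passed, also at an unadjusted p under 0.05. Of all 455 tested genes, 3 passed that test and 18 had an unadjusted p under 0.05. That BCV was assumed and not estimated from these libraries. With a single library a side it lets only large ratios pass, so the count of 0 cannot decide whether the members differed. With library totals in place of TMM, which raises the median log2 ratio of all genes by 0.14, all 6 members were still lower and 5 passed, where 9.01% of all tested genes passed as lower. Mir196a-2 did not, at -0.01 (exact binomial test, adjusted p = 0.539). Among all genes called, 47.1% were higher in replicate 2 with TMM and 78.8% with library totals.

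Other microRNA markers differed between the libraries beside the members, by the same exact binomial test under TMM and under library totals. In the miR-30 list 4 of 6 genes were higher in replicate 2 and none lower with either scaling. The miR-200 list turned with the scaling: 4 of 5 genes were lower and none higher with TMM, and none lower and 2 higher with library totals. Endothelial Mir126a was lower, with 52632 CPM in replicate 1 against 51554 in replicate 2, as was liver Mir122, at 210 and 171 CPM. Both were also lower with library totals. In the blood list 3 of 4 genes were higher with TMM and all 4 with library totals, with sums of 654 and 845 CPM. None of the 5 muscle markers tested passed with TMM and 1 was higher with library totals, and of the 3 gonad and adrenal markers 1 was higher and 1 lower, with sums of 14.5 and 15.7 CPM. Of 4 adult tubule markers, which summed to 479.7 and 498 CPM, 1 was lower with TMM and 1 higher with library totals, and of the 2 neuronal markers tested 1 was lower with either. The part of these cell types in the members' ratios was not tested.

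**Figure D4:**
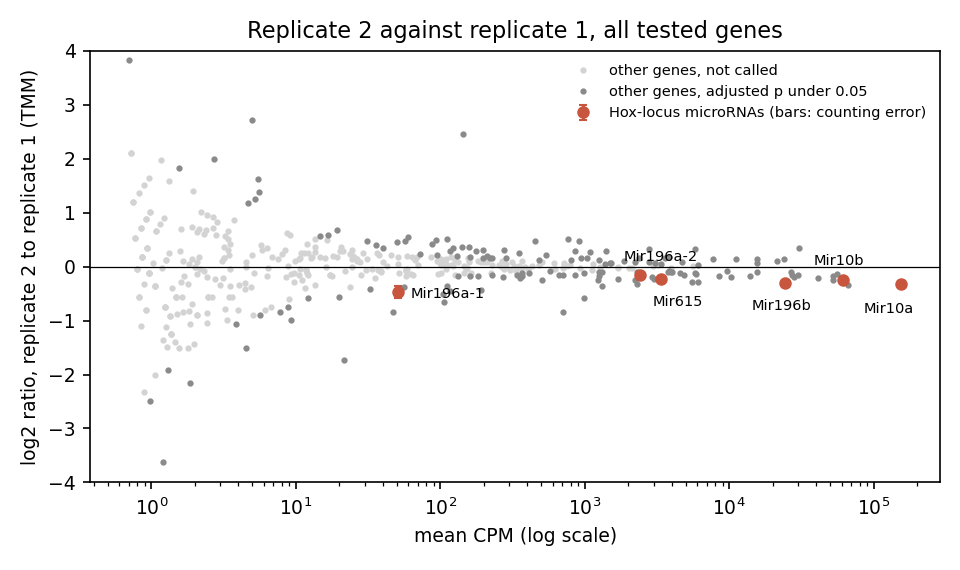
Log2 ratio of replicate 2 to replicate 1 with TMM factors against mean CPM (log axis) for the 455 tested genes, with members in red and bars for counting error. The 6 members lie below 0, from -0.16 for Mir196a-2 to -0.47 for Mir196a-1.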

How the data were processed

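MicroRNA sequencing of embryonic kidney gave 2 libraries. The authors deposited raw counts of reads per microRNA gene on mm10 with annotation release M4, according to text files kept beside the tables. The sources used here name no aligner, counter or trimming tool. In the deposited tables, in all 1973 gene rows the first count equals the sum of the other 2, taken as the gene's strand and the opposite strand. The gene's strand was used, with 5317669 and 7128703 reads. On the opposite strand Mir10a had 1 read in replicate 1, and no other member had any. Rows naming no gene held 54.2% and 50.4% of all reads and were left out. Symbols and positions came from GENCODE M21 (1894 rows matched), and sequences from RefSeq and GENCODE M21.

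Python 3.11.15, scipy 1.17.1 and R 4.3.3 with edgeR 4.0.16 were used. The quasi-likelihood test of edgeR has no residual degrees of freedom with 1 library a side. DESeq2 1.42.0 gave size factors as an alternative. The members were taken by name, with the genes next above and below each in mean CPM, the gene nearest in log2(CPM + 1) and all microRNA genes within 20 kb of a Hox cluster. Members and lists were chosen with earlier results of these data known. Alternatives covered the total, strand, pseudocount, scaling, test, filter, stretch length and each library left out. Library totals were applied to the marker lists after their TMM counts were seen. The map and the 3′ UTR search cover Hox paralogue groups 3 to 13; the rest is not reported here.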

Additional observations from a re-analysis of the deposited data

How the results depend on the processing

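The members' share of reads, 24.6%, was 11.5% of all reads in the tables and 10.9% with Mir10a left out of members and total. It ranged from 23.3% to 26.0% when either library was left out. All 59 values of the 14 folds among members and sums kept their direction and their side of 1.35-fold under other pseudocounts, either strand, either library alone and, for the sums, without genes that share sequence. Some of the 14 repeat each other, such as Mir10b over Mir196b and Hoxd over Hoxa, so the values are not independent. The threshold was set for the mean of both libraries and is too low for either library alone. The miR-196a folds could not be computed without those genes. The number of members sharing sequence was 2 at stretches of 16, 18 and 20 nt. Members called between libraries fell from 6 to 0, and all genes called from 153 to 3, in the edgeR exact test at a BCV of 0.2. In the binomial test all 6 passed with DESeq2 size factors, TMM without the members, or a filter of 1 read. Of all tested genes, 152 of 455, 158 of 455 and 145 of 710 passed there, in that order. With 1 group of 2 libraries the BCV could not be estimated against a contrast, so 0.2 is an assumed value and the fall to 0 rests on it. Depth limits Mir196a-1 most, with 301 and 321 reads. No paired analysis was possible because the series holds 1 group.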

Other observations

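The Hox clusters also hold annotated matches to the seeds of their own microRNAs, although no mRNA was measured here. The longest annotated 3′ UTR of each of the 34 Hox genes of paralogue groups 3 to 13 (GENCODE M21) was searched on the transcript strand for the seed complements ACAGGGT (miR-10), ACTACCT (miR-196) and GGCTCGG (miR-615-3p). The miR-196 motif was present in 7 of these genes (Hoxa4, Hoxa5, Hoxa7, Hoxa9, Hoxb6, Hoxb7 and Hoxc8), the miR-10 motif in 2 (Hoxa3 and Hoxb3) and the miR-615-3p motif in 1 (Hoxb4). In windows of equal length, the first 500 bases after the stop codon, the miR-196 motif was in 7 of 31 Hox genes (22.6%) and in 1.98% of 14292 genes. The miR-10 motif was in 1 of 31 (3.23%) against 4.79%, and the miR-615-3p motif in 0 of 31 against 1.01%. A miR-196 match in Hoxa7, on chromosome 6 from 52215210 to 52215231 (GRCm38, minus strand), is printed 5′ to 3′ with the motif in capitals to show what a seed match looks like.
Hoxa7: actactagccctaaACTACCTa

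These are matches of letters, not measured sites, and the genes of a cluster are related by descent.

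Pairing over the whole microRNA, without gaps, singled out Hoxb8, a known target of miR-196. Of the 22 bases of miR-196a-5p, 21 paired with its 3′ UTR in Watson-Crick fashion and 1 as G with U, on chromosome 11 from 96284888 to 96284909 (GRCm38, plus strand). No other of the 20914 3′ UTRs compared reached as many Watson-Crick pairs. The match is printed 5′ to 3′ with the Watson-Crick bases in capitals, and the lower-case base, opposite a U of the seed, is why the seed motif search missed Hoxb8.
Hoxb8: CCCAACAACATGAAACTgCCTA

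The best pairings of these Hox 3′ UTRs with miR-10a-5p and miR-615-3p had 14 Watson-Crick pairs, which 25.1% and 21.3% of all 3′ UTRs reached or exceeded. Hoxa13 reached this number for both, and whether other Hox genes tied with it was not counted.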
